A study of Mus musculus with 11 samples.

Results

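In naive CD4 T cells of 3 mice, 682 of 45508 chromatin accessibility peaks (1.499%) were nearly closed in the cells with the lowest Nur77-GFP reporter. They were more open in the cells with the highest. These peaks were chosen by 2 limits. The mean in population A, the reporter-low cells, had to be under 2 rppm (the deposited unit, reads scaled to a common total), and log2((mean of D + 1)/(mean of A + 1)) had to be at least 1.5, where D is the reporter-high population. Of the 1185 peaks under 2 rppm in A, 682 (57.6%) met the limit on the rise and 503 did not. A further 252 peaks made the same rise from 2 rppm or more. Values in A and D chose the peaks, so their levels in A and D, and every difference between A and D, are given as a description, and nothing is read from a test of them. The word "closed" holds in degree: 4 of the 682 peaks had 0 reads in both libraries of A, and the other peaks had at least 1.

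The cells came from spleens and lymph nodes of untreated mice on a C57/BL6 background, stained and sorted as CD4+ without T cell receptor stimulation. All the mice carried the Tg(Nr4a1-EGFP)GY139Gsat transgene and the Foxp3tm1Flv targeted mutation, so every group shares both reporters. All 4 populations were Foxp3-RFPneg and CD44lo. Population A was Nur77-GFPlo Ly6C+ (2 libraries, from mice 1 and 3), B was Nur77-GFP intermediate and Ly6C+, C was Nur77-GFP intermediate and Ly6C-, and D was Nur77-GFP high and Ly6C-, with 3 libraries each, from mice 1, 2 and 3. The age of the mice is not given in the labels. Each library was made by ATAC-seq from 10000 cells, an assay in which Tn5 transposase inserts adapters into accessible DNA. The total behind the scaling, estimated from the values, ran from 2597176 reads (D of mouse 1) to 36859229 (D of mouse 3). By this estimate, 2 rppm stood for 5 reads in the shallowest library and 74 in the deepest. Across A and D, reporter and Ly6C change together and cannot be told apart.

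As background, the Nr4a1 gene, which encodes the orphan nuclear receptor Nur77, is induced when the T cell receptor signals, and its GFP reporter is read in resting naive cells as a record of recent signals from self peptides on MHC. Ly6C is a surface protein of naive CD4 T cells that is lower where such signals are stronger. Closed regulatory DNA is wrapped in nucleosomes, and it opens where transcription factors bind and recruit remodelling enzymes, most often at enhancers away from gene starts. In T cells, NFAT, AP-1, Egr and Nr4a proteins are among the factors that act downstream of the receptor.

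The T cell label held in the peaks of its markers. The promoter peak of Cd3e, a signalling chain of the T cell receptor complex, was at 55.0 ± 1.23 rppm (SD, n = 2) in A cells, and at 52.1 ± 9.95 (SD, n = 3) in D cells. The promoter peak of Cd4 was at 13.4 ± 0.14 rppm in A cells, against 12.7 ± 1.9 in D cells. No peak was listed for the B cell genes Ms4a1, Pax5 and Blk, the myeloid genes Csf1r and Lyz2 or the NK cell genes Ncr1 and Nkg7. Other genes of these lists did have peaks: 3 of 7 B cell genes, 5 of 7 myeloid genes and 5 of 7 CD8 T and NK genes. The 159 listed peaks of naive CD4 markers summed to 2960 to 3068 rppm across the A libraries and 2832 to 2944 across D. The sums for other cell types rest on fewer peaks and are given without comparison. They were taken over B cell markers (6 peaks, 45.1 to 51.4 rppm across A and 35.8 to 53.1 across D), myeloid markers (13 peaks, 81.9 to 86.6 and 63.5 to 76.3) and CD8 T and NK markers (15 peaks, 175 to 176 and 147 to 167). None of the 682 peaks was assigned to a naive CD4, B cell, myeloid or CD8 T and NK marker gene.

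Few of the opened peaks lie on promoters, and 4 that do are shown with their sequence because they join the change in accessibility to a gene start. A 5th, an internal start of Mctp1, is shown for the AP-1 match that it holds and was chosen after its sequence was seen. Each sequence is the 250 bases before the start site of the gene, 5′ to 3′ on the strand of the gene, from RefSeq on GRCm38.p6, the assembly behind the mm10 build of the peaks. Capitals mark matches on either strand to TGANTCA (AP-1), TGGAAA (NFAT), AAAGGTCA (the Nr4a element), TGTGGTT (Runx), CAGGAAGT (Ets) and CTTTGAT (Tcf7 and Lef1).

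Prr5l, chr2:101797708-101797957, minus strand: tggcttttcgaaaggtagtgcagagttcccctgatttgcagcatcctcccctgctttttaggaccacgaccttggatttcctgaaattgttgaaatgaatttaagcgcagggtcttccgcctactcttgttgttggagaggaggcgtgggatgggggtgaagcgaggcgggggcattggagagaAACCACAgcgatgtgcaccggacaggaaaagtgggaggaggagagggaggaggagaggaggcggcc
Sh3gl3, chr7:82174546-82174795, plus strand: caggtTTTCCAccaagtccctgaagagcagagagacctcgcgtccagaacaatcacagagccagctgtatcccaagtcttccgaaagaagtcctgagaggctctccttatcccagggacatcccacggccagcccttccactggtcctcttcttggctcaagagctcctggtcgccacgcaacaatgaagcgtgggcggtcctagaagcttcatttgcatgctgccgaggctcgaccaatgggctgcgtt
Itgb8, chr12:119238277-119238526, minus strand: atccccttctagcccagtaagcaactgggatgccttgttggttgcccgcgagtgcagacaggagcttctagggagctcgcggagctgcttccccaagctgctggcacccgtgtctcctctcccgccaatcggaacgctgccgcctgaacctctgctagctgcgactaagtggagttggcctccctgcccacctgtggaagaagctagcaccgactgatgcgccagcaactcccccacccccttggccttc
Nrp2, chr1:62703067-62703316, plus strand: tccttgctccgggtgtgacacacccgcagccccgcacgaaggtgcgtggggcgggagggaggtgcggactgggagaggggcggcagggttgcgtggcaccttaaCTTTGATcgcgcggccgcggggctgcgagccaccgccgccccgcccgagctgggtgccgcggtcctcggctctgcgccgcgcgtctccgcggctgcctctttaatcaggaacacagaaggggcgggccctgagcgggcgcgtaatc
Mctp1, chr13:76579347-76579596, plus strand: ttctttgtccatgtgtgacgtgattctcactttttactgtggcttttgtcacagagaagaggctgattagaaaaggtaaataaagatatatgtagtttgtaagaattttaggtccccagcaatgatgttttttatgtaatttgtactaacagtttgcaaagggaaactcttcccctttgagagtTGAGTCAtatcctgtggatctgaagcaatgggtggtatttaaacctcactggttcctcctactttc

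The Prr5l sequence holds a Runx match, that of Sh3gl3 an NFAT match, that of Nrp2 a Tcf match and that of Mctp1 an AP-1 match, whereas that of Itgb8 holds none of the 6 motifs. Peaks overlapped at least 150 of the 250 bases before 19 starts in all (18 peaks). Across these 19 sequences, AP-1 was matched in 3 (15.8%), against 6.87% of 27025 promoters of the same length. NFAT was matched in 2 (10.5%, against 18.7%), Runx in 3 (15.8%, against 4.40%), and the Nr4a element in 0, against 1.34%. The Egr motif GCGTGGGNG was matched in 3 (15.8%, against 1.54%), 1 of them Sh3gl3. The median G+C content was 62.4%, against 52% of all promoters. Each share rests on at most 19 sequences, and most on a handful of matches. A match is a string of letters rather than a bound site.

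Across the 4 populations, the 682 peaks gained accessibility in the order A, B, C, D. The median peak stood at 0.792 rppm in A, 1.26 in B, 1.98 in C and 6.28 in D. The means followed this order in 578 of the 682 peaks (84.8%), against 13.5% of all 45508 peaks. Low values in A and high values in D chose the peaks, which favours A below B and C below D. The order of B and C is the part that uses no library behind the choice. The share of 84.8% is therefore a description. The summed level of the 682 peaks was 590 to 607 rppm across the A libraries, 899 to 996 across B, 1413 to 1568 across C and 4504 to 5231 across D. The libraries of the 4 populations did not overlap in this sum. The same sum was 1.57-fold, 1.56-fold and 1.70-fold higher in C than in B within mice 1, 2 and 3, and 3.34-fold, 3.19-fold and 3.18-fold higher in D than in C. Within 1 mouse, B was 1.64-fold above A in mouse 1 and 1.52-fold in mouse 3. The peaks took 0.0623% to 0.0642% of the reads in listed peaks in A and 0.482% to 0.558% in D. In such bulk libraries, an open site in few cells and a weaker opening in all cells cannot be told apart. In 663 of the 682 peaks, every D library lay above every library of B and C, but high values in D chose the peaks. This count was not taken over all peaks, and nothing is read from it.

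**Figure D1:**
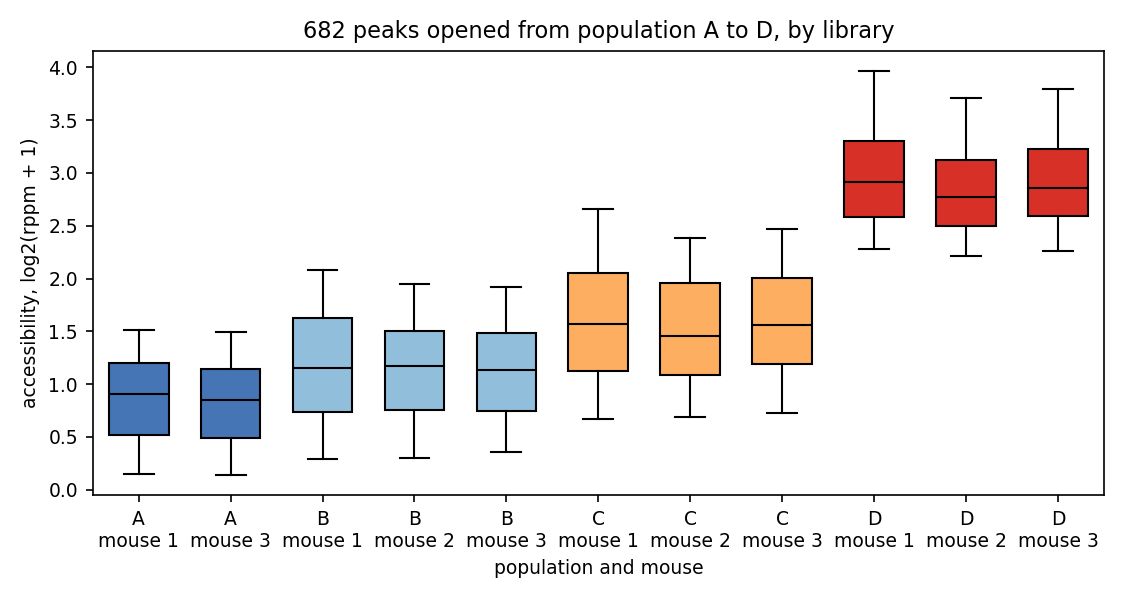
Accessibility of the 682 opened peaks in each of the 11 libraries, as log2(rppm + 1), by population and mouse. Boxes span the quartiles with the median as a line, and whiskers run from the 5th to the 95th percentile; the boxes of D sit above those of the other 8 libraries, with B and C between.

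The levels reached in D were moderate, at a median of 6.28 rppm against 9.98 over all peaks. Means in D ran from 3.43 to 26.4 rppm, with 155 peaks under 5 rppm and 91 at 10 or more. The highest belonged to a peak in intron 2 of Swap70, which encodes a signalling adaptor of lymphocytes (chromosome 7, 110253764 to 110254824). It stood at 0.761 and 0.906 rppm in A, 2.34, 1.95 and 1.48 in B, 4.71, 4.01 and 4.17 in C, and 32.7, 22.7 and 23.7 in D (order of mice). The libraries of each population lay above those of the one before. A peak in intron 1 of Sik3, a salt-inducible kinase (chromosome 9, 46083228 to 46084052), reached 27.7, 17.6 and 20.1 rppm in D from 2.55, 2.88 and 2.19 in C. A peak 10.2 kb from the start of Ergic1, a gene of transport between endoplasmic reticulum and Golgi, reached 21.8 ± 5.9 rppm in D from 0.205 ± 0.136 in A.

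The limits cut through a continuum. The peaks nearest to 2 rppm in A from below were assigned to Paqr3, Sik1 and Aig1, at means of 1.99 rppm, and those from above to Umps, Irak3 and Fam168a, at 2.04. The peak near Irak3 reached 18.6 rppm in D and the peak near Sik1 14.3. At the limit on the rise, the nearest peaks inside (Ssbp2, Lamc3, Inpp4b) and outside (Serp2, Runx1, Tsg101) had rises of 1.503 to 1.504 and of 1.497 to 1.498.

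To describe where along the populations a peak gained, B and C were each placed between A and D. The scale was log2(rppm + 1) of the means, with A at 0 and D at 1. The data hold no time course, so early and late here and below refer to the order A, B, C, D alone. The median place of B was 0.147 (quartiles 0.0709 and 0.226) and that of C was 0.350 (quartiles 0.242 and 0.461). On the linear scale the medians were 0.0723 and 0.2. The larger part of the gain therefore lay between C and D, both Ly6C- populations. C stood past the midpoint in 119 peaks (17.4%) and at a place under 0.1 in 44, whereas B was past the midpoint in 1. The 252 peaks that made the same rise from a higher start had a median place of 0.214 for B and 0.422 for C, and C was past the midpoint in 29.0% of them. These places share the libraries of A and D with the choice of peaks and were not tested.

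**Figure D2:**
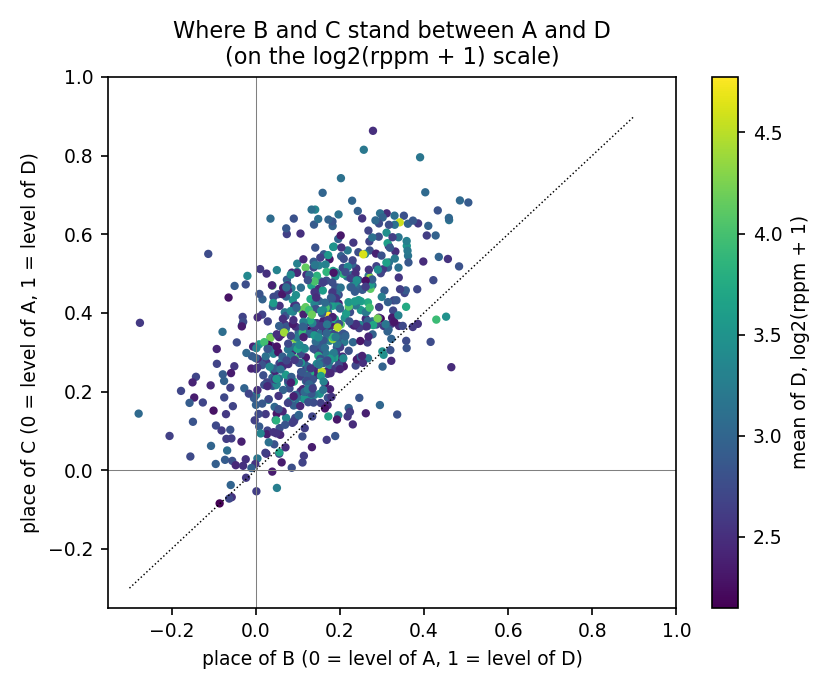
Place of B (x axis) and C (y axis) between A (0) and D (1) for each of the 682 peaks, on the log2(rppm + 1) scale of the means, coloured by the mean in D. Most points lie above the dotted line of equal place and under 0.5 on the y axis, around the medians of 0.147 and 0.350.

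Peaks at the late end stood near their level in A in both populations with intermediate reporter. In intron 2 of Runx2, a Runx family transcription factor (chromosome 17, 44727695 to 44728346), accessibility was 0.435 and 0.604 rppm in A, 0.111, 0.687 and 0.359 in B, 0.196, 0.309 and 0.596 in C, and 6.93, 4.65 and 5.13 in D. The libraries of A, B and C overlapped and all lay under 1 rppm. A peak in intron 2 of Dcaf17, a substrate receptor of a ubiquitin ligase, likewise stood at 0.582 ± 0.253 rppm in A, 0.489 ± 0.426 in C and 6.91 ± 2.57 in D. Slc29a3, a nucleoside transporter, held an intron 2 peak at 0.822 ± 0.547, 0.836 ± 0.217 and 6.7 ± 1.31 rppm in the same populations. Atxn1 and Scaf4 held other peaks among the 5 with the lowest places of C, by the rule of at least 5 rppm in D and a gene with a proper symbol.

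At the early end was a peak 12.9 kb from the start of Inpp4a, a phosphoinositide phosphatase (chromosome 1, 37286456 to 37287384). On the log2(rppm + 1) scale it differed about as much between A and B as between B and D. Its values were 1.41 and 1.61 rppm in A, 4.34, 2.52 and 3.19 in B, 4.91, 3.6 and 4.28 in C, and 8.47, 5.09 and 5.78 in D. B lay above A in every library, while B and C overlapped. It was the 1 peak with a place of B past the midpoint (0.51). A peak 125.3 kb from Nab1, a corepressor of Egr factors (chromosome 1, 52374532 to 52375714), gained later in the order of populations. It stood at 1.86 ± 0.637 rppm in A, 2.42 ± 0.319 in B, 5.61 ± 0.808 in C and 9.12 ± 1.23 in D. Among peaks with a D mean of at least 5 rppm and a gene with a proper symbol, those near Ncoa2 and Kdr were also among the 5 with the highest place of C, which ran from 0.66 to 0.80.

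The comparison of C with B sets Ly6C- against Ly6C+ cells at intermediate reporter. The difference between C and B uses no library from which the peaks were chosen, although those libraries come from the same mice. The A and D libraries enter the fit and its estimate of spread, and so the p-values. Under limma with Benjamini-Hochberg adjustment over all 45508 peaks, 1 of the 682 peaks was higher in C, against 0.0022% of all peaks, and this peak was the single call in the whole table. None was lower in C, against 0% of all peaks. At an unadjusted p under 0.05, 323 of the 682 peaks were higher in C (against 2.77% of all peaks) and 0 were lower (against 1.23%). With the mouse as a block, which pairs libraries of the same animal, 33 of the 682 were higher (against 0.156% of all peaks) and 0 lower (against 0.0374%). The 33 are 33 of the 71 peaks called higher in the blocked fit. Among the peaks described above, the block brought under the threshold those of Nab1 (limma adjusted p = 0.0156, against 0.162 without it) and Swap70 (0.0351, against 0.2). Leaving out the shallowest library, that of D in mouse 1, raised the calls of the unblocked fit to 22 higher, 13 of them among the 682 peaks, and 4 lower. Leaving out any library of B or C, the D library of mouse 3, or all of mouse 3 left 0 calls.

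The direction of this step was shared by most of the peaks. C was higher than B in 638 of the 682 (93.5%), against 48.5% of all peaks, and the median difference was 0.40 on the log2(rppm + 1) scale (quartiles 0.21 and 0.58), against -0.0046 over all peaks. The extremes were -0.34 and 1.5. In 340 peaks (49.9%, against 5.73% of all peaks) every C library lay above every B library. In 0 peaks every C library lay below, against 1759 of all 45508 peaks. C was above B within each of the 3 mice in 460 peaks (67.4%, against 16.5%), in 2 mice in 175, in 1 mouse in 45 and in 0 mice in 2. Over all 45508 peaks, C was above B in 2, 1 and 0 mice in 15403, 15510 and 7077. The median difference was 0.38, 0.37 and 0.46 in mice 1, 2 and 3. The pattern was not particular to peaks that started nearly closed. The 252 peaks with the same rise from 2 rppm or more had a median of 0.38, with 94.4% positive, and the 503 other peaks under 2 rppm in A had a median of 0.25, with 84.1% positive. Every listed peak reached 1 rppm in at least 3 of the 11 libraries, so a peak that was low in A entered the list through its level in another population.

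**Figure D3:**
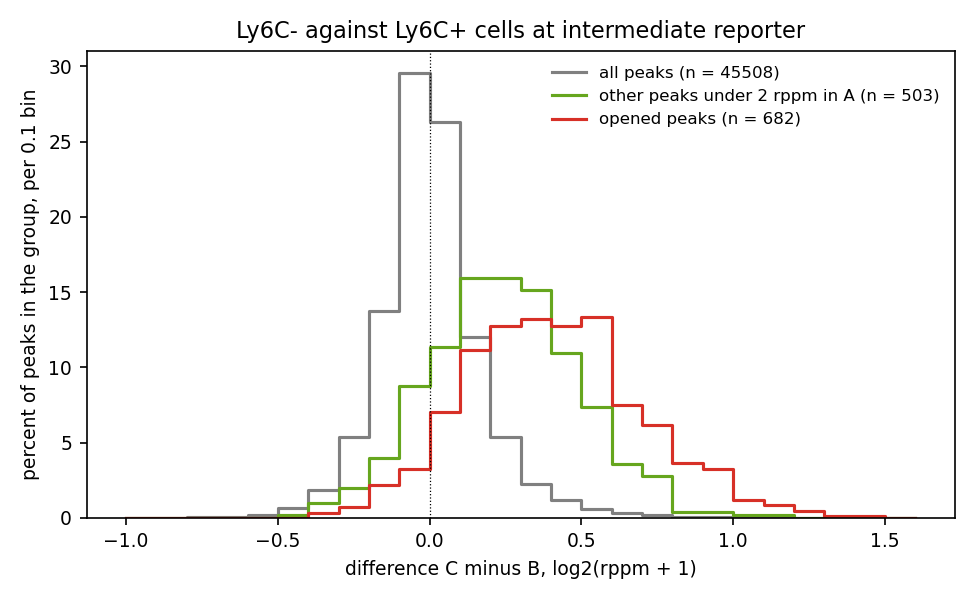
Difference between C and B in log2(rppm + 1), in bins of 0.1, as the percentage of peaks in each group: the 682 opened peaks, the 503 other peaks under 2 rppm in A, and all 45508 peaks. The opened peaks centre on 0.40 and all peaks near 0, with overlap between the curves.

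The peak called higher in C was on chromosome 12 (25600650 to 25601483), intergenic and 471.9 kb from the nearest start, that of the predicted gene Gm17746. It is named here because it was the single call. It stood at 0.435 and 0.101 rppm in A, 0.668, 1.03 and 0.918 in B, 4.51, 4.42 and 3.92 in C, and 8.47, 6.4 and 8.14 in D. Every C library lay above every B library and below every D library. The difference between C and B was 1.5 (SE 0.17, limma adjusted p = 0.0199, and 0.00469 with the mouse block). The call was lost without any single library of B or C, without the D library of mouse 3, without mouse 3, with a pseudocount of 5 and under quantile normalization, while the difference stayed at 0.66 or more.

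The next 10 peaks by p, among genes with a proper symbol and 1 per gene, missed the threshold without the block and passed with it. Among them were peaks near Ppp2r5c, Gtsf1l, Kcnk5, Me3, Jak2, Plcb4, Slc22a2, Flrt3 and Sh3gl3. The limma adjusted p of the 10 ran from 0.0511 to 0.136. A peak 65.5 kb from Ppp2r5c, a regulatory subunit of the phosphatase PP2A (chromosome 12, 110381120 to 110382306), stood at 0.109 and 0.101 rppm in A, 0.111, 0.229 and 0.16 in B, 1.96, 1.54 and 1.36 in C, and 15.4, 13.2 and 15.5 in D. A and B were at about 1 to 4 reads per library, every C library lay above both, and D lay far above C. The difference between C and B was 1.16 (SE 0.15, limma adjusted p = 0.0511, and 0.014 with the block).

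A peak 13.7 kb from the start of Gtsf1l (chromosome 2, 163102885 to 163103744) stood at 1.09 and 0.503 rppm in A, 0.891, 1.15 and 0.838 in B, 4.71, 3.39 and 3.86 in C, and 19.3, 12.1 and 13.2 in D. C and B did not overlap, and the difference was 1.34 (SE 0.20, limma adjusted p = 0.07, and 0.00835 with the block). In intron 2 of Jak2, a kinase of cytokine receptors (chromosome 19, 29271038 to 29271587), the values were 0.326 and 0.705 rppm in A, 0.557, 0.801 and 0.599 in B, 1.96, 3.19 and 2.75 in C, and 10.8, 11.5 and 10.3 in D. A and B overlapped and C and D each stood apart.

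Kcnk5, a potassium channel, was unlike these in that its peak in intron 1 was no higher in B (0.996 ± 0.104 rppm) than in A (1.26 ± 0.0686) and stood at 3.11 ± 0.63 in C and 5.7 ± 0.29 in D. The peak near Me3, a mitochondrial malic enzyme, stood at 0.783 ± 0.0311, 1.44 ± 0.27, 4.05 ± 0.692 and 7.83 ± 0.603 rppm from A to D. In intron 8 of Slc22a2, an organic cation transporter, the same means were 1.93 ± 0.264, 4.04 ± 0.865, 8.38 ± 0.334 and 23.5 ± 2.07 rppm. Plcb4, a phospholipase C, held a peak in intron 4 that stood at 0.679 ± 0.191 rppm in B and 2.89 ± 0.536 in C. The peak assigned to Flrt3 lies in an intron of another gene, Macrod2.

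**Figure D4:**
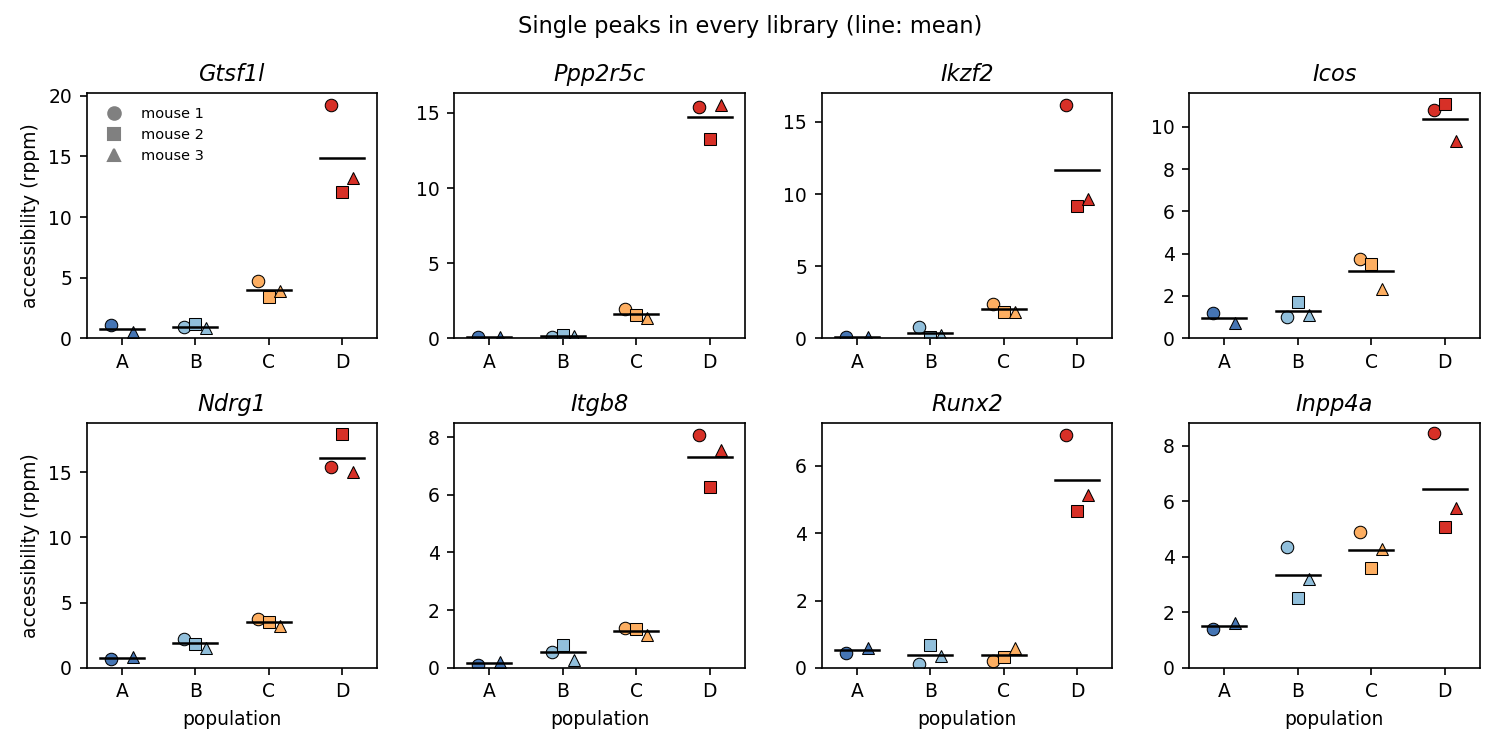
Accessibility in rppm (linear axes from 0) of 8 opened peaks in every library of populations A to D, with the mean of each population as a line and a symbol for each mouse. C stands above B in every library at Gtsf1l, Ppp2r5c, Ikzf2, Icos, Ndrg1 and Itgb8, not at Runx2 or Inpp4a, and D is highest throughout.

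Among genes of regulatory T cells, 6 of 103 listed peaks (5.83%) were opened peaks, against 1.499% of all peaks, near Ikzf2, Itgb8 and Tnfrsf9. None of the 6 was called between C and B by limma without the block, 5 of the 6 were higher in C, and the median difference was 0.39. With 1 call over all 45508 peaks (0.0022%), a count of 0 called says little about this or the later gene lists. Ikzf2 encodes the transcription factor Helios and had 3 opened peaks of its 11 listed. In its intron 6 (chromosome 1, 69544126 to 69544705) the values were 0.109 and 0.101 rppm in A, 0.78, 0.114 and 0.239 in B, 2.35, 1.85 and 1.79 in C, and 16.2, 9.16 and 9.63 in D. A was at 1 read in each library, and every C library lay above every B library. The difference between C and B was 1.15 (SE 0.22, limma adjusted p = 0.172, and 0.0156 with the block). A peak in intron 5 stood at 0.46 ± 0.302 rppm in B and 1.5 ± 0.78 in C, and the third, 6.5 kb from the start, at 2.45 ± 0.605 in B and 2.2 ± 0.907 in C, where the sign of the difference changed with the library left out.

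Itgb8 encodes an integrin subunit that takes part in the activation of TGF-beta. Its promoter peak, the sequence of which is given above (chromosome 12, 119237858 to 119239075), stood at 0.109 and 0.201 rppm in A, 0.557, 0.801 and 0.279 in B, 1.37, 1.34 and 1.14 in C, and 8.09, 6.25 and 7.57 in D. The populations did not overlap, but the difference between C and B (0.57, SE 0.16) was not called (limma adjusted p = 0.528). An intron 2 peak of the same gene remained at 0.406 ± 0.102 rppm in C and reached 4.42 ± 1.51 in D. The 46 listed peaks of the 7 regulatory T cell markers summed to 594 to 629 rppm across the A libraries, 609 to 639 across B, 616 to 676 across C and 726 to 785 across D, with 3 opened peaks among them. The cells had been sorted as negative for the Foxp3 reporter, and the part of regulatory T cells in these results was not tested.

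Among follicular helper T cell genes, 5 of 137 listed peaks (3.65%) were opened peaks, near Icos, Il21, Maf, Cd200 and Pou2af1. All 5 were higher in C than in B, with a median difference of 0.68, and none was called by limma without the block. The peak 72.6 kb from Icos, a costimulatory receptor (chromosome 1, 61050165 to 61050809), stood at 1.2 and 0.705 rppm in A, 1, 1.72 and 1.12 in B, 3.73, 3.5 and 2.33 in C, and 10.8, 11.1 and 9.31 in D. C and B did not overlap, and the difference was 0.87 (SE 0.19, limma adjusted p = 0.21, and 0.0384 with the block).

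The peak near Il21, the cytokine of follicular helper cells (chromosome 3, 37259425 to 37260071), had little spread, at 0.993 ± 0.0198 rppm in A, 1.56 ± 0.14 in B, 2.61 ± 0.0615 in C and 7.2 ± 0.317 in D. The peak assigned to Maf, a transcription factor of these cells, lies 570.0 kb away in an intron of Wwox and stood at 0.522 ± 0.127 rppm in B and 1.9 ± 0.775 in C. At Cd200, the ligand of an inhibitory receptor, a peak stood at 2.76 ± 0.208 rppm in B, 5.06 ± 0.585 in C and 17.2 ± 3.21 in D, with no overlap of C and B and no call.

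Negative regulators of T cell activation held 17 of the opened peaks among 370 listed (4.59%), near 10 genes. The median difference between C and B was 0.40, with 14 of 17 positive and 0 called by limma. Ndrg1, which is linked to T cell anergy, had 4 opened peaks within 89.4 kb, of 13 listed. The strongest, 28.8 kb from the start (chromosome 15, 66998045 to 66998931), stood at 0.653 and 0.805 rppm in A, 2.23, 1.83 and 1.56 in B, 3.73, 3.5 and 3.23 in C, and 15.4, 17.9 and 15 in D. No 2 populations overlapped. The peak 93.0 kb from the start was the one with the largest difference between C and B, 0.95 (SE 0.18, limma adjusted p = 0.172, and 0.0548 with the block), and its B mean (0.54 ± 0.154) was close to that in A (0.519 ± 0.12).

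Tnfaip3, an inhibitor of NF-kB signalling, had a peak at 1.51 ± 0.152 rppm in B, 2.42 ± 0.595 in C and 8.2 ± 1.23 in D. Tox, a transcription factor of thymocytes and exhausted T cells, had 3 opened peaks, of which the one in intron 3 stood at 1.45 ± 0.198 rppm in B and 2.54 ± 0.29 in C. The remaining negative regulators were Cd6, Dusp4, Havcr2, Rasa2, Sla and Socs1. The Socs1 peak lies in an intron of Clec16a, 93.6 kb from the start of Socs1.

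Effector and memory genes held 8 opened peaks of 123 listed (6.504%), the highest share of the 8 lists. Their median difference between C and B was 0.29, with 7 of 8 positive and 0 called by limma. Cd44, whose protein was low by the sort in every population, had 2 opened peaks 55.4 and 80.1 kb from its start. The nearer one (chromosome 2, 102956648 to 102957396) stood at 0 and 0.503 rppm in A, 0.445, 0.572 and 0.279 in B, 1.57, 1.65 and 2.33 in C, and 10, 4.95 and 6.24 in D. C and B did not overlap, with a difference of 0.99 (SE 0.23, limma adjusted p = 0.291).

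Ifng, the cytokine of type 1 helper cells, had 2 opened peaks and showed a different course, with most of the early gain already in B. Its peak 19.4 kb from the start stood at 1.2 ± 0.156 rppm in A, 3.19 ± 0.247 in B, 3.65 ± 0.34 in C and 12.3 ± 0.987 in D, and B and C overlapped. The other, 17.9 kb from the start, had the larger difference between C and B. It stood at 0.741 ± 0.337 rppm in A and 1.92 ± 0.547 in B. C was at 2.37 ± 0.35 rppm and D at 6.4 ± 0.838, and B and C overlapped here too. The peak near Ccl5, a chemokine, had the same course with 1.11 ± 0.282, 2.68 ± 1.14, 3.6 ± 0.628 and 6.79 ± 0.474 rppm. By contrast Ahr, a transcription factor that binds small ligands, stood at 0.462 ± 0.344 rppm in A, 0.627 ± 0.246 in B and 1.84 ± 0.631 in C. The peak near S100a6, a calcium-binding protein, stood at 0.587 ± 0.223 rppm in B and 0.45 ± 0.147 in C.

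Thymocyte genes held 6 opened peaks of 214 listed (2.80%), among them peaks near Bcl11b, Rag2 and Tox, all 6 with C above B and 0 called by limma. The Rag2 peak, 8.6 kb from its start, lies in an intron of Iftap. It stood at 2.62 ± 0.0568 rppm in B and 4.53 ± 2.03 in C, where mouse 1 (6.87 rppm) stood above mice 2 and 3 (3.19 and 3.55). Naive homing and quiescence genes held 4 of 449 (0.891%), near Foxp1, Klf3 and Bach2, all 4 with C above B by means and 0 called. The Foxp1 peak in intron 1 that gained most stood at 0.414 ± 0.125 rppm in A, 1.44 ± 0.226 in C and 9.54 ± 1.75 in D.

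Genes induced by T cell receptor signalling, the class of gene that the reporter stands for, held 3 opened peaks of 164 listed (1.83%), near Irf4, Tagap and Tnfrsf9. Their median difference between C and B was 0.06, with 2 of 3 positive and 0 called by limma. The Irf4 peak, 82.2 kb from that transcription factor's start in an intron of Exoc2, stood at 0.884 ± 0.174 rppm in A, 1.28 ± 0.281 in B, 2.29 ± 0.531 in C and 6.4 ± 1.91 in D. At Tagap, a GTPase-activating protein of T cells, C (1.43 ± 0.217 rppm) was lower than B (1.74 ± 0.384) in all 3 mice, without a call. The genes that encode NF-kB, NFAT or AP-1 proteins themselves had 155 listed peaks, of which 0 were opened peaks. A peak enters a list through the gene the authors assigned, and several genes stand in more than 1 list.

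Most genes had a single opened peak. The 682 peaks were assigned to 585 genes, of which 511 had 1, 56 had 2, 13 had 3 and 5 had 4. Ptger2, a receptor for prostaglandin E2, had 4 of its 5 listed peaks among them. These 4 lay over 70.1 kb, 17.7 to 87.0 kb from the start, and all were under 1 rppm in A. Their D means were 7.83 ± 0.415, 4.58 ± 0.99, 4.64 ± 1.35 and 3.94 ± 0.41 rppm in order of distance. The strongest was late, at 0.679 ± 0.468 rppm in C, and the peak at 53.1 kb was earlier, at 1.72 ± 0.293 in C.

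The 4 peaks assigned to H2afy3, a gene of a histone variant, lie over 82.3 kb, 3 of them in introns of the noncoding RNA gene Pvt1. The one at 62189565 to 62190653 on chromosome 15 reached 10.6 ± 2.75 rppm in D, and the other three 4.42 to 5.75. Other genes with 3 peaks included F13a1, Gfod1, Eef2kmt and Bcl2l14. In intron 1 of Gfod1 the 3 peaks lay within 22.7 kb and reached 7.46 ± 1.31, 4.2 ± 0.403 and 5.77 ± 0.67 rppm in D. Their C means, 3.47 ± 0.673, 0.729 ± 0.0525 and 1.44 ± 0.568 rppm, placed the first earlier than the second and the third. Of the 682 peaks, 133 (19.5%) had another within 50 kb, and the median distance to the nearest was 359 kb.

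Opened peaks lay away from gene starts. Of the 682, 319 (46.8%) were intergenic and 320 (46.9%) intronic by the deposited annotation. Within 1 kb of a start lay 27 (3.96%), against 26.8% of all peaks, and over 100 kb away lay 104 (15.2%), against 5.94%. The median distance was 30.2 kb, against 9.59 kb. Of the 503 other peaks under 2 rppm in A, 7.75% were within 1 kb. Among the 252 peaks with the same rise from a higher start it was 4.76%. The median width was 648.5 bases, against 761 over all peaks. It was 572 over the 503 other peaks under 2 rppm in A and 779.5 over the 252. Chromosome 13 had the largest share of its listed peaks among them (47 of 1852, 2.54%) and chromosome 11 the smallest of the autosomes (27 of 3656, 0.739%), with 8 of 1008 on X. Of 319 intronic peaks whose transcript was matched in RefSeq, 105 lay in an intron of a gene other than the assigned one. Peaks assigned to Gm3383, Gm10406 and Gm3558 on chromosome 14 lie near copies of related predicted genes, so their reads may have been split between copies.

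**Figure D5:**
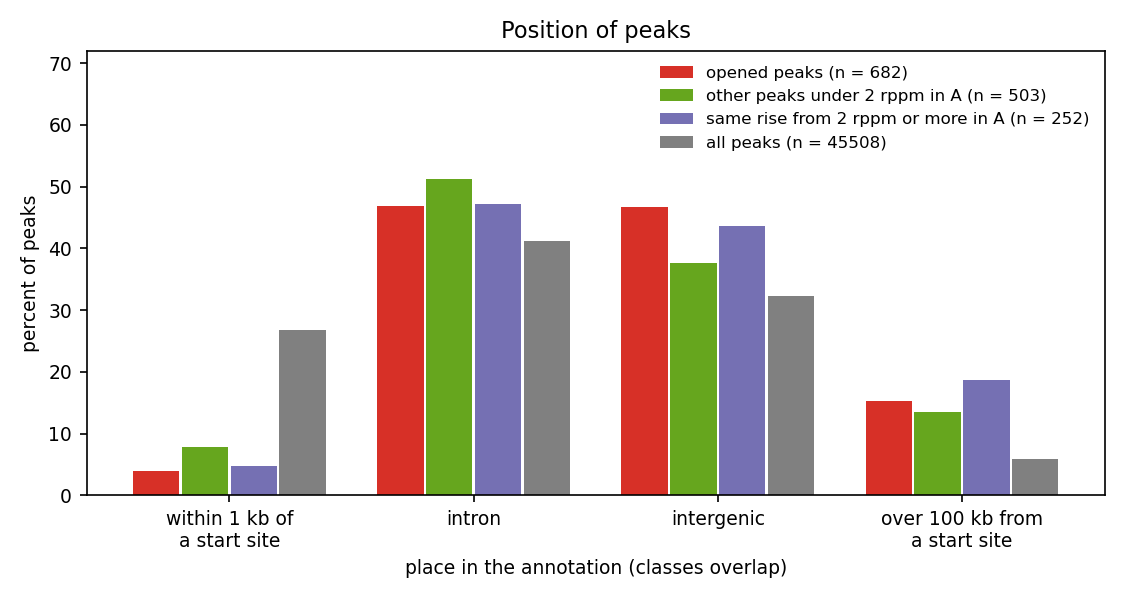
Percentage of peaks within 1 kb of a start site, in introns, intergenic, and over 100 kb from a start site, for the 682 opened peaks and 3 other sets. Opened peaks are at 3.96% within 1 kb against 26.8% of all peaks, close to the 4.76% of peaks with the same rise from a higher start.

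Where another promoter peak of the assigned gene was listed, it was mostly open in A. This was so for 362 of the 585 genes, with a promoter peak that was not itself an opened peak. The remaining genes had no such peak. Where a gene had several, the peak highest in A was taken, a choice that favours high values in A. The median of that peak was 45.3 rppm in A and 44.0 in D. In 312 of the 362 genes that peak was at 10 rppm or more in A. None of the 362 was called between C and B by limma, against 0.0022% of all peaks higher in C and 0% lower. Their median difference was 0.02. The other listed peaks of the genes numbered 3447, with 0 called and a median of 0.0196. With 1 call over all 45508 peaks, a count of 0 says little about sets of this size. No peak other than the opened one was listed for 73 genes.

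Among the opened peaks within 1 kb of the start of their assigned gene, where that gene has a proper symbol, the one of Prr5l, which encodes a protein bound to mTOR complex 2, reached the highest level (chromosome 2, 101796422 to 101797943). It stood at 0.435 and 0.705 rppm in A, 1.23, 0.572 and 0.878 in B, 1.37, 1.85 and 1.76 in C, and 11.6, 14.8 and 14.4 in D. C and B did not overlap, and the larger gain lay between C and D. At Sh3gl3, which encodes an endophilin (chromosome 7, 82174544 to 82175532), the course was earlier, with 0.435 and 0.503 rppm in A, 1.67, 0.572 and 1.04 in B, 3.53, 3.81 and 2.78 in C, and 8.47, 8.87 and 9.77 in D. The difference between C and B there was 1.09 (SE 0.19, limma adjusted p = 0.136, and 0.0286 with the block), and its place of C was 0.57, against 0.24 at Prr5l.

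The promoter peak of Nrp2, a neuropilin receptor, stood at 1.14 ± 0.233 rppm in A, 1.8 ± 0.252 in B, 3.16 ± 0.628 in C and 6.78 ± 1.87 in D. The promoter of Ttc39c differed between mice in C, at 1.37, 3.39 and 3.49 rppm against 0.445, 0.458 and 0.559 in B. Its D value was also lowest in mouse 1 (3.85, 7.42 and 7.46 rppm), and its difference between C and B was called with the block (limma adjusted p = 0.018) and not without it (0.2). Chst3, a sulfotransferase, had a peak in its 5′ UTR exon at 2.59 ± 0.19 rppm in B and 2.42 ± 0.612 in C, and the sign of this difference changed with the library left out. At Mctp1, the internal start with the AP-1 match stood at 0.473 ± 0.0997 rppm in A, 0.483 ± 0.142 in B, 1.47 ± 0.27 in C and 4.59 ± 1.05 in D.

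Between D and A, the contrast that chose the peaks, limma called all 682 higher, against 8.7% of all peaks. The choice of peaks fixed this count, and nothing is read from it. Low counts set the precision in A. A count of 3 reads, the limit that a count of 0 allows, stood for 0.326 and 0.302 rppm in the A libraries and 1.16 in the D library of mouse 1. Under this limit lay 99 of the 682 peaks in A of mouse 1 and 75 in A of mouse 3, and 0 in any D library. Reads carry no molecular identifiers, so such limits cover counting error alone.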

How the data were processed

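ATAC-seq accessibility is given for 11 libraries. The deposited table gives 1 value per peak and library in RPM, called rppm per the file headers; what the authors divided by is not given. Bowtie, MACS2 and mm10 are named, without versions or roles, in the submitters' processing notes; read filters, peak merging and pooling are not given in the sources used here. All values were whole multiples, within 6e-04 rppm, of a fitted value of 1 read per library. This fit gave the totals of 2597176 to 36859229 reads, which are estimates.

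Values were tested as log2(rppm + 1) by limma 3.58.1 (R 4.3.3). The model had a mean for each population, held all 11 libraries and used a variance trend, two-sided p-values adjusted by Benjamini-Hochberg over 45508 peaks and a threshold of 0.05; the fit was tested on simulated data. "Called" means past that threshold. Replicates are different mice. Mouse numbers pair libraries, because the labels give the same animal: deviations from population means correlated at 0.183 to 0.556 in 15 pairs of 1 mouse and at -0.433 to 0.203 in 30 pairs across mice and populations.

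Named peaks were the 10 with the smallest p higher in C, up to 4 per gene list by difference between C and B, genes with the most peaks, the nearest to each limit, the extremes of place, the highest in D and up to 6 promoters. Except at the limits, these choices skipped genes without a proper symbol, such as predicted genes. Members and lists were chosen with earlier results of these data known. The naive CD4, B cell, myeloid, CD8 T and NK, and regulatory T marker lists were read as sums. Alternatives were other pseudocounts, scalings, filters, limits, library weights, the mouse block and leaving out libraries. A few peaks that these rules take are not reported here.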

Additional observations from a re-analysis of the deposited data

How the results depend on the processing

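The count of calls between C and B depended on the processing, and the cause was not tested. Calls higher in C, 1 over all peaks, became 171 with library weights, 71 with the mouse as a replicate block, 3 with a pseudocount of 0.25, and 0 with a pseudocount of 5, quantile normalization, a minimum mean of 5 rppm or without mouse 3. Leaving out 1 library gave 0 to 22. Calls lower in C, 0, became 40 with weights and 17 with the block, and 0 to 4 when 1 library was left out. Of the 682 peaks, 94 were higher in C with weights, 33 with the block, 3 with a pseudocount of 0.25, 0 with a pseudocount of 5, quantile normalization, the minimum mean or without mouse 3, and 0 to 13 with 1 library left out; 0 were lower under every alternative run. The weights and the removal of mouse 3 were chosen after seeing the data. Among the peaks the text names, the block changed no call other than those given with it.

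The median difference between C and B over the 682 peaks, 0.395, was 0.6833 among the 51 with a mean of at least 5 rppm, 0.5598 with a pseudocount of 0.25, 0.1562 with a pseudocount of 5 and 0.2078 under quantile normalization. The limits gave 47 peaks with a pseudocount of 5, 418 with A under 1 rppm, 345 with a rise of at least 2, and 673 to 745 with 1 library left out. Without A of mouse 1, 745 met the limits, 630 of them among the 682. The median place of B was 0.1838 and 0.1012 with pseudocounts of 0.25 and 5, and that of C was 0.4046 and 0.2686, or 0.3357 to 0.3588 with 1 library left out.

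Of the values for 40 named peaks, 711 kept direction and side of the threshold, 36 passed it, 10 no longer did and 8 changed sign. Those 8 belong to 3 peaks. Chst3 was at 0.0047 with weights and -0.2073 to 0.0556 with 1 library left out. The Ikzf2 peak at 6.5 kb was at 0.0317 with weights and -0.3439 to 0.0489 with 1 library left out. Tnfrsf9 was at -0.0268 under quantile normalization, -0.0541 without mouse 3 and -0.0413 to 0.1789 with 1 library left out. The count tests edgeR and DESeq2 were not run, since the deposited unit is RPM and a stricter check for whole reads passed in part of the libraries; motif searches inside the peaks were not run, as no genome was used here.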
